A study of Mus musculus with 10 samples.

Results

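The RBFOX2 iCLIP clusters of highest coverage in mouse embryonic stem (ES) cells were examined: the 357 clusters, of 35639 in the deposited list, whose coverage was at or above the 99th percentile of all clusters. The threshold lay at a coverage of 18844. The 357 clusters fell in 273 of the 7740 genes that held a cluster. A symbol was found for 270 of the 273 genes, and the other 3 gene IDs, with 5 clusters, are given by ID. The clusters were thus chosen by their coverage in the tagged library, so their coverage, width and fold over the untagged library are given as a description with no test.

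The iCLIP cells were V6.5 ES cells carrying a lentivirus that expressed FLAG-HA-tagged human RBFOX2 under doxycycline control, and for comparison V6.5 cells with the same construct without the tag. Both kinds of cells were induced with doxycycline at 1 µg/ml for 24 h after hygromycin selection and crosslinked with ultraviolet light at 150 mJ/cm2, so the RNA recovered is that bound to an added human protein in cells that also held their own Rbfox2. There was 1 library of each kind and no replicate, and the untagged library received 7 PCR cycles beyond the 16 of the tagged library. Expression came from V6.5 ES cells with lentiviral hairpins against Rbfox2 (shFox2-1 and shFox2-2) or against luciferase (shLuc) and GFP (shGFP), selected with puromycin at 1 µg/ml for 3 days and kept without it for 24 h. Each hairpin had 2 libraries, which the deposited table combines into 1 FPKM value (fragments per kilobase of a transcript and scaled to library size) with an interval.

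RBFOX2 is a splicing regulator that binds pre-mRNA through an RNA recognition motif with a preference for the letters GCAUG. Bound downstream of an alternative exon it usually promotes inclusion, and bound upstream or within the exon it usually promotes skipping. It is known for switching exons of cytoskeletal, adhesion and membrane-trafficking genes, and in ES cells it also binds transcripts of other RNA-binding proteins. In iCLIP the protein is crosslinked to RNA in living cells, and a cluster is a stretch of transcript where recovered fragments pile up. The untagged library passes through the same FLAG and HA purification without a tag to hold it, so it records the background of the procedure.

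The top clusters held 26.3% of the summed coverage of all clusters on 5.81% of the summed width. Their coverage ran from 18852 to 202869 with a median of 28438, against 148 to 18830 with a median of 370 in the 35282 other clusters. They were broad: the median width was 779 bases (36 to 3155), against 90 bases (33 to 1767) in the other clusters. Of the top clusters 82.9% were at least 300 bases wide (95% Wilson interval 78.7 to 86.5), against 6.69% of the others (6.43 to 6.95). These intervals, like all intervals on shares given here, cover counting error only. Across all 35639 clusters coverage and width rose together, with a Spearman correlation of 0.82, and among the 357 top clusters it was 0.46; both measures come from the same reads and are given as a description.

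The top clusters were grouped by width. The 296 wide ones lay in 260 genes, with a median coverage of 30997, a median coverage per base of 39.0 and a median fold over the untagged library of 7.05. A further 11 were between 100 and 300 bases wide. The 50 narrow ones, under 100 bases, lay in just 11 genes and had a median coverage of 23064, a median coverage per base of 430 and a median fold of 2.51. Ranked by coverage per base instead, 64 of the 357 clusters would still be in the top percent: all 50 narrow ones, 5 of the wide ones, and 9 between. For the narrow ones this followed from the choice of clusters. Coverage at the threshold on under 100 bases is already a high coverage per base. In the plot of coverage against width the narrow group lies above the other clusters of its width, as the threshold requires. Other narrow clusters lie just under the threshold, up to 18579 at 1 site in Lncenc1.

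**Figure D1:**
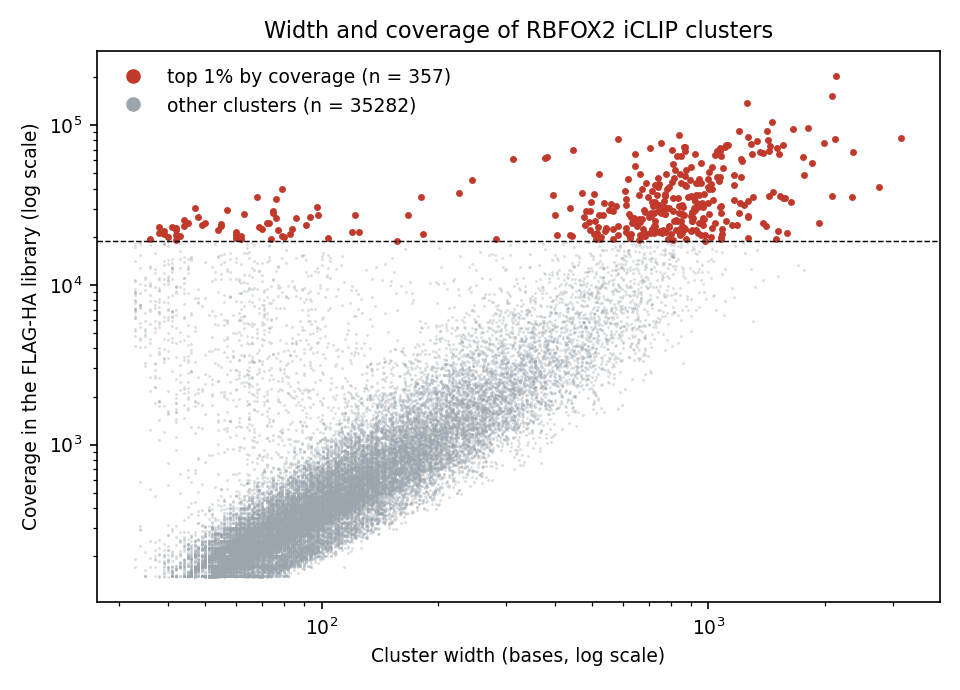
Coverage in the FLAG-HA RBFOX2 library against cluster width in bases, both on log scales, with 1 point per cluster; red points are the 357 top clusters, grey points the 35282 others, and the dashed line is the 99th percentile at 18844. Most red points sit at widths of 300 bases or more, and 50 sit under 100 bases, where grey points of similar width mostly lie far lower.

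Every top cluster also had coverage in the untagged library. The coverage implied for the untagged library, which is the deposited coverage divided by the deposited fold, had a median of 5222 in the top clusters (559 to 48095). An infinite fold, which means no untagged coverage, was found in 0 of 357 top clusters, which allows a share of up to 0.840% by the limit of 3 counts (Wilson upper bound 1.06%), against 45.3% of the other clusters. The fold had a median of 6.58 in the top clusters (1.35 to 37.14), against 3.61 in the 19282 other clusters with a finite fold. The second median leaves out the 45.3% of other clusters with an infinite fold, so the 2 medians do not rank the sets by fold. Of the top clusters 16 (4.48%, 2.78 to 7.16) were under 2-fold, against 11.8% of the others (11.4 to 12.1). A further 48 of the 357 were at 10-fold or more. Among the others, the 45.3% with an infinite fold already lie above 10-fold. Those with a finite fold of 10 or more were not counted. A fold of 10 or more was thus more common among the others than among the top clusters. Ranked by coverage minus the implied untagged coverage, 322 of the 357 would remain in the top percent.

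The clusters under 2-fold were gathered in few genes. Lncenc1 held 7 of them, Enah 6, Deaf1 2 and Ywhae 1, and 15 of the 16 were narrow clusters in the crowded sites described further on. The highest fold, named here after its value was seen, belonged to the only cluster of Aldh5a1, a succinate semialdehyde dehydrogenase gene, at 37.14 with a coverage of 20761. How the sources scaled the 2 libraries to each other was not given, and the part of the untagged library's extra PCR cycles in these folds was not tested.

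**Figure D2:**
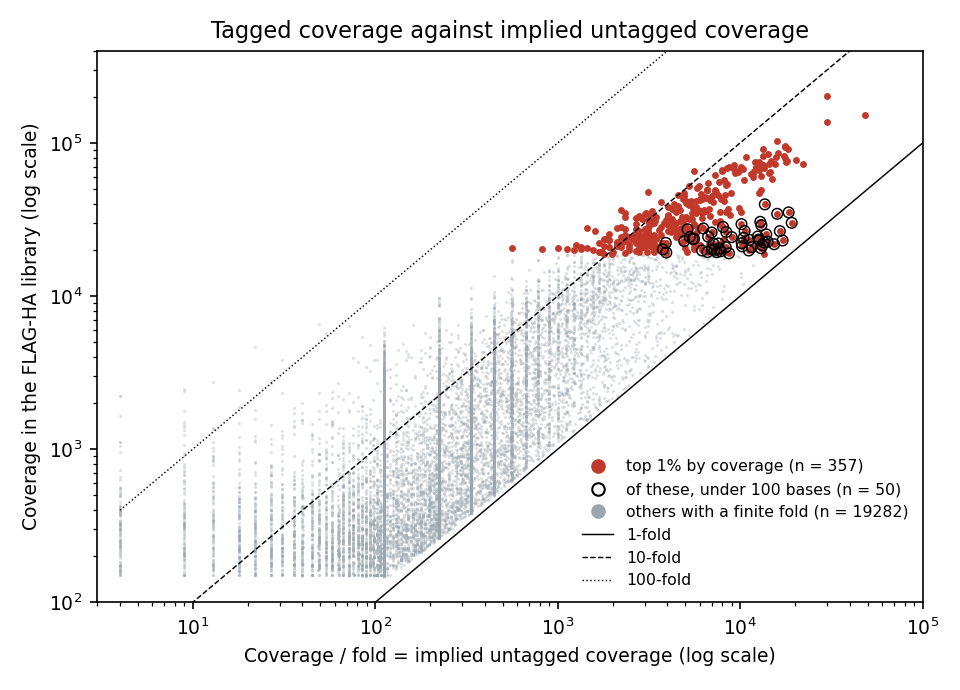
Coverage in the FLAG-HA RBFOX2 library against the implied untagged coverage (coverage divided by fold), both on log scales, with 1 point per cluster; red points are the 357 top clusters, circles mark the 50 of them under 100 bases, and grey points are the 19282 other clusters with a finite fold. The lines mark 1-fold, 10-fold and 100-fold. The circled clusters had a median fold of 2.51, against 7.05 in the 296 top clusters at least 300 bases wide. Grey points reach down to 1.05-fold.

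The highest coverage, 202869, belonged to a cluster of 2140 bases in Uri1, which encodes a prefoldin-like chaperone (mm9 chr7:38792124-38794263, minus strand, fold 6.76). It lay 19.1% of the way along the gene's locus. The next was a cluster of 2082 bases in Tsix, the antisense RNA that represses Xist (chrX:100643253-100645334, plus strand), with a coverage of 152460 and a fold of 3.17. Its implied untagged coverage of 48095 was the highest of all the top clusters. Usp30, a deubiquitinase of the mitochondrial surface, followed with a coverage of 137425 and a fold of 4.62 in its only cluster (chr5:114567664-114568919, plus strand).

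The remaining 7 of the leading 10 clusters stood between 84349 and 103628 in coverage and between 5.0 and 6.83 in fold. In descending order they lay in Pias2 (a SUMO ligase), Cabin1 (a calcineurin-binding protein), Mrps18a (a mitochondrial ribosomal protein), Zfp420 (a zinc finger protein), Ncoa1 (a steroid receptor coactivator), Thada and Fn1 (fibronectin). All 10 were wide, from 839 bases in Thada to 2140 in Uri1. The genes differed in how much of their signal the cluster took. It was the gene's only cluster in Usp30 and Zfp420 and took 98.5% of the gene's summed coverage in Tsix, whereas the Uri1 cluster was 1 of 23 and took 66.5%.

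By the choice of a threshold the highest cluster of each of the 273 genes is a top cluster, and top clusters together took a median of 83.0% of the gene's summed coverage, with a range of 4.96 to 100%. In 31 genes a top cluster was the only cluster of the gene. The genes held a median of 6 clusters, against 3 in genes without a top cluster. At the lower edge of the set, the clusters just inside the threshold lay in Pspc1 (a paraspeckle protein, coverage 18852), Blvra (biliverdin reductase, 18912) and Ywhae (a 14-3-3 protein, 18961), and those just outside in Mpp7 (18830), Herc2 (18680) and Sec16a (18667).

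Single top clusters were the rule: 231 genes held 1, 28 held 2, and 14 held 3 or more. Those 14 genes accounted for 70 clusters. Genes with more than 1 top cluster held 126 of the 357, or 35.3% (30.5 to 40.4). Joining overlapping top clusters on a strand left 314 regions, and joining those within 1 kb left 294 sites, so the number of separate binding stretches is smaller than the number of clusters. A top cluster shared bases with another cluster of its strand in 32.2% of cases (27.6 to 37.2), against 7.58% of the other clusters. Another cluster lay within 1 kb on the strand for 69.2%, against 46.1% of the others.

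Deaf1, a transcription factor gene, held the most top clusters, 15, all inside 545 bases (chr7:148512584-148513128, minus strand) at about 25.5% of its locus. They were 38 to 79 bases wide, stepped along the transcript by a median of 30 bases, and had coverages of 19031 to 39733 and folds of 1.85 to 4.6. Altogether 24 clusters were listed in that stretch, and the 9 that missed the threshold had coverages of 3889 to 18568. Deaf1 thus presented 1 densely covered site that the list cuts into many overlapping pieces. Whether overlapping pieces share reads was not given in the sources used here.

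Lncenc1, a long noncoding RNA of naive ES cells, and Enah, an actin regulator with exons known to respond to RBFOX2, had sites of the same form. In Lncenc1 9 top clusters lay inside 697 bases (chr13:98265196-98265892, plus strand), with coverages of 19856 to 28301 and folds of 1.35 to 3.51. In Enah 8 of its 10 top clusters lay inside 536 bases (chr1:183861832-183862367, minus strand), with coverages of 20893 to 35232 and folds of 1.57 to 2.22. The Enah piece of highest density, 47 bases wide, reached 640 per base, the highest value among the top clusters, at a fold of 1.57. The other 2 top clusters of Enah were wide and had higher folds, 3.53 for a cluster 547 bases from the 3′ end of the locus and 4.15 for one 7208 bases from it.

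A site was called crowded where at least 2 of its top clusters were narrow. The single top cluster of Dgcr8, with 50 other clusters within 1 kb on its strand, did not meet that rule. Clusters outside the top set had up to 65 within 1 kb. There were 8 crowded sites, with 48 top clusters, 47 of them narrow. Besides those of Deaf1, Lncenc1 and Enah they were in Ppp1r12b (a myosin phosphatase subunit, 4 top clusters in 167 bases), Prdm2 (a histone methyltransferase, 4 in 532 bases), Eif4g3 (a translation initiation factor, 3 in 211 bases), Xkr6 (2 in 366 bases) and the unnamed gene ENSMUSG00000086651 (3 in 549 bases). The median fold at these sites was lowest in Lncenc1, at 1.62, and highest in Xkr6, at 5.12. Xkr6 and ENSMUSG00000086651 are named as members of this group of 8 and not by the rule for named genes. The implied untagged coverage of the top clusters ran from 5291 to 13654 at the Deaf1 site, from 8063 to 17096 at the Lncenc1 site and from 11607 to 19173 at the Enah site, as the plot of 4 of these sites shows.

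**Figure D3:**
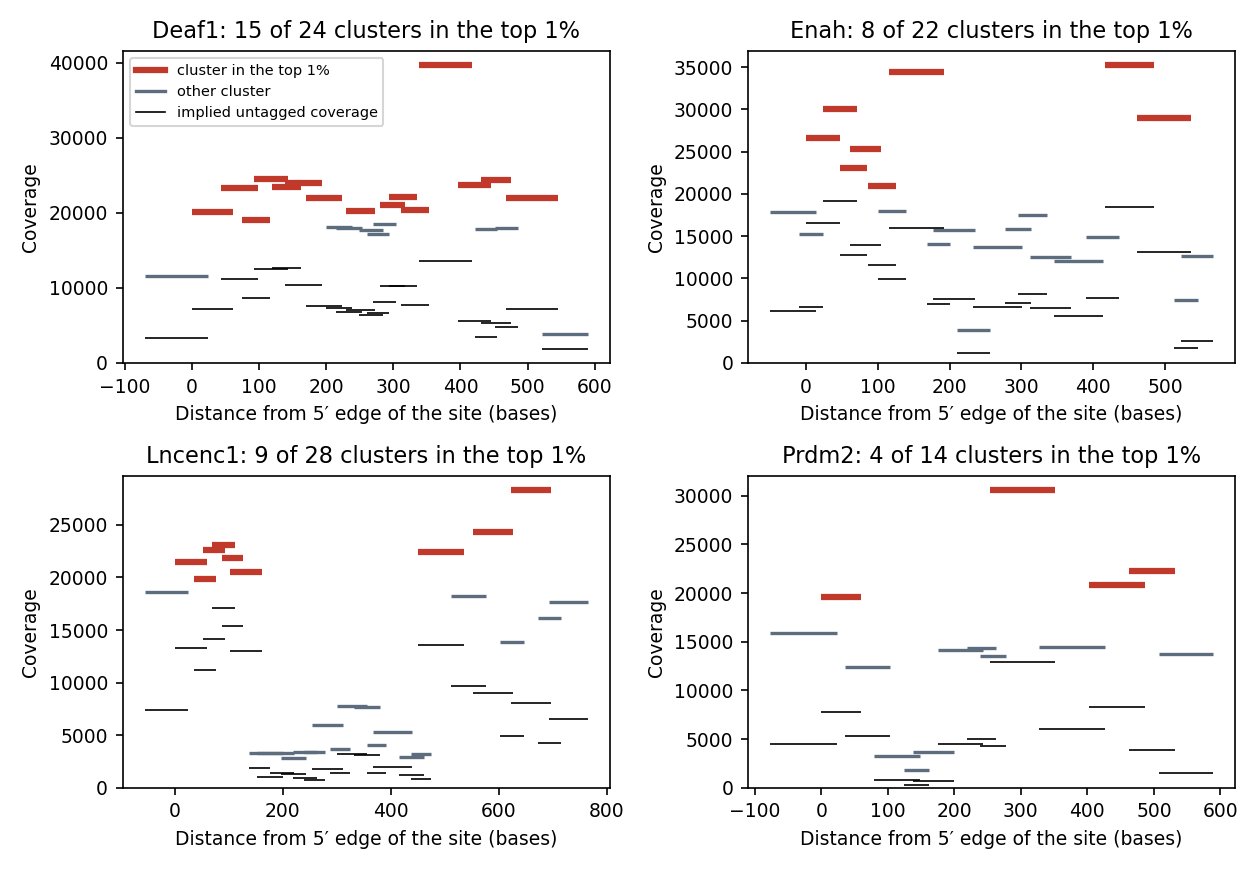
Coverage of each cluster (vertical axis, linear from 0) against its distance in bases from the 5′ edge of the site, for the sites of Deaf1, Enah, Lncenc1 and Prdm2; each bar spans 1 cluster, red where it is a top cluster and grey where it is not, and thin black bars give the implied untagged coverage of the same cluster. Deaf1 shows 15 red bars from 19031 upwards, and the black bars under red ones reach 19173 in Enah and 17096 in Lncenc1.

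Outside the crowded sites, 34 genes held several top clusters, 18 of them at separate sites and 16 within a single site. Gli2, a transcription factor of Hedgehog signalling, had 4 at 3 sites between 28.2 and 76.2% of its locus, with coverages of 25033 to 54413 and folds of 6.85 to 8.14. Dst, the cytoskeletal linker dystonin, had 3 at separate sites between 59.2 and 97.8% of its locus, with folds of 5.06 to 9.82. Smyd3, a lysine methyltransferase gene with 136 clusters in all, had 3 at separate sites with folds of 4.56 to 8.46. In Fut10, a fucosyltransferase gene, 3 top clusters made up 97.0% of the coverage of the gene's 5 clusters. Arhgap28, which encodes a GTPase-activating protein, had 3 next to each other at about 22% of its locus.

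A few positions were listed under 2 gene IDs. Such pairs of overlapping top clusters were Atp5o with Cryzl1 (706 shared bases), Emc1 with Ubr4 (970 shared bases), and Galnt2 with Usp10 at 2 places (966 and 494 shared bases). For these 8 clusters the list alone does not tell which gene is meant. By name and place, the clusters listed under Cryzl1 and Usp10 matched a locus of the expression table. Those listed under Atp5o, Galnt2, Emc1 and Ubr4 did not. In 273 top clusters with a gene strand in the reference table all 273 lay on that strand, as did 27330 of 27380 other clusters. No top cluster overlapped a cluster of the other strand, against 12 of 35282 other clusters (0.034%). In both respects the top clusters were thus close to the others. Of the 346 top clusters with a known gene class, 13 lay in long noncoding or antisense RNAs, which is 3.76% (2.21 to 6.32), against 0.746% of the others (0.660 to 0.842). Lncenc1 alone supplied 9 of those 13, and the rest lay in Tsix and in Gm10069, Rab10os and B130055M24Rik, which are named to complete the count.

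Position along the gene was read against the loci of the expression table, which matched 314 top clusters by name and place and 30703 of the others. The midpoint of 2.55% of the matched top clusters (8 of 314; 1.30 to 4.95) lay within 1 kb of the 3′ end, against 6.66% of the others (6.39 to 6.94). At the 5′ end the share was 0.955% (3 of 314; 0.325 to 2.77), against 1.54% (1.41 to 1.68). The first 10% of the locus held 5.41% of the top clusters (3.41 to 8.50), against 10.02% of the others, and the last 10% held 9.87% (7.04 to 13.7), against 14.2%. The stretch from 20 to 30% held 14.6% of the top clusters (11.2 to 18.99), against 10.1%. All 15 top clusters of Deaf1, pieces of 1 site at 24.9 to 26.1% of its locus, are among them. The interval counts each piece of that site separately. Most top clusters were internal to their genes. All these positions are of cluster midpoints, and the top clusters were wider, with a median of 779 bases against 90. The part of width in these shares was not tested. Counted per cluster, the median locus length was 77939 bases for the top clusters and 70154 for the others. Counted per gene, it was 71715 bases for tested hosts of top clusters and 35133 for tested genes with other clusters only.

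The top clusters near a 3′ end, named here after their positions were seen, were those of Ppp1cb (a phosphatase catalytic subunit), Polr2a (the large subunit of RNA polymerase II), Enah, Celf1 (a splicing and decay regulator), Atp6v0e, Zfand6, Trim71 (a regulator of mRNA in stem cells) and Ywhae. The cluster in Celf1 was centred just past the annotated end, at 100.2% of the locus length. Those near a 5′ end were in B3glct, Prkaca (the catalytic subunit of protein kinase A) and Aes. The remaining 43 top clusters had no matched locus and were left out of these shares. For 16 of them the gene's name had an entry on the same chromosome that did not overlap the cluster. Exons and introns were not assigned, since no annotation of the build mm9 was used here, and no cluster sequence is shown for the same reason.

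**Figure D4:**
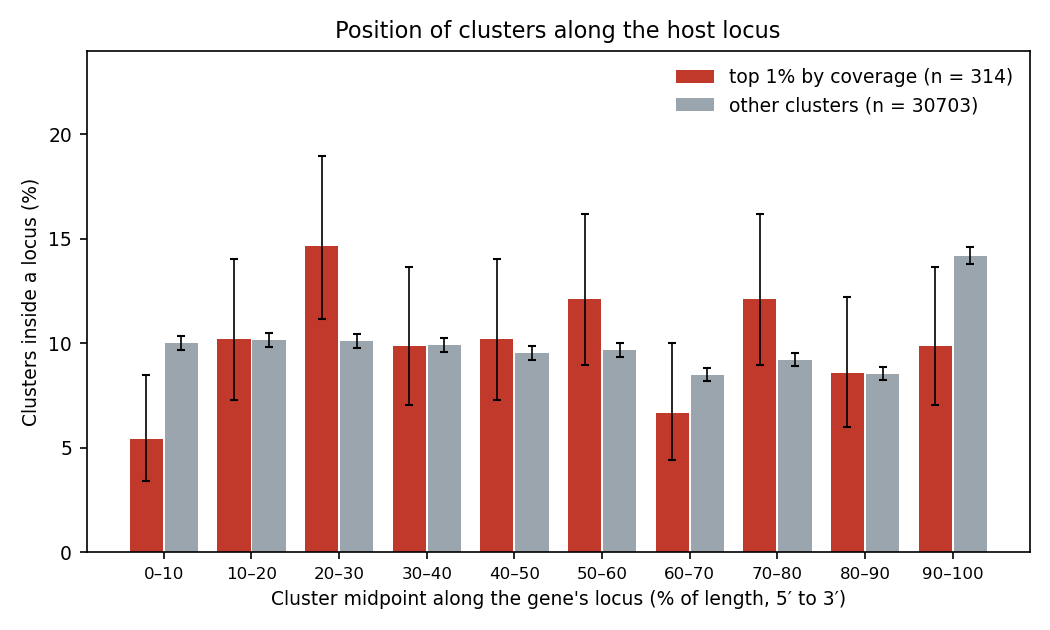
Share of clusters in each 10% of the host locus, from the 5′ to the 3′ end (horizontal axis, % of locus length), for the 314 matched top clusters (red) and 30703 other clusters (grey); bars start at 0 and error bars are 95% Wilson intervals. The red bar is lower than the grey one in the first bin (5.41% against 10.02%) and in the last (9.87% against 14.2%), and higher from 20 to 30% (14.6% against 10.1%). All 15 top clusters of the Deaf1 site fall in that 20 to 30% bin.

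The groups of genes that RBFOX2 is known for, and those the series asked about, were then counted among the 273 genes. Of all genes with a cluster, 3.53% (273 of 7740) held a top cluster. Among cytoskeletal and adhesion genes and known RBFOX2 splicing targets it was 11 of 39, with 24 top clusters. They were led by Fn1 (coverage 84349), Dst (72820), Actn1 (an actin crosslinker, 45776) and Myh10 (a nonmuscle myosin heavy chain, 35900), and 10 of the 24 clusters were those of Enah. The list was written with earlier results of these data known and includes genes chosen for known exons, so its count is a description.

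RNA-binding protein genes, the network named by the series, were counted in 4 lists. None of 11 SR protein and Tra2 genes with a cluster held one. Among hnRNP genes it was 1 of 25, Pcbp2, a poly(C)-binding protein (coverage 21878). Among other splicing regulators it was 2 of 48, Celf1 (33741) and Pspc1 (18852). Among regulators of mRNA decay, translation and localisation it was 3 of 41, among them Dgcr8, which recognises primary microRNAs (27666). The cluster of Dgcr8 took 4.96% of the coverage of a gene with 85 clusters. Rbfox2 itself, listed as Rbm9, held none, and its highest cluster had a coverage of 12447.

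Chromatin regulators held a top cluster in 5 of 37 genes. They were Bptf, a subunit of a nucleosome remodeller whose cluster was the widest of all at 3155 bases (coverage 82375), Setd2, a histone methyltransferase (41094), Tet2, a methylcytosine dioxygenase (28392), Kmt2d, another histone methyltransferase (21992), and Arid1b, a remodeller subunit (19294). By symbol, the pluripotency list gave 5 of 26, and 4 without Tcf3: Dppa4 (20797), Trim71 (19525), Rest, a transcriptional repressor (19338), and Prdm14 (19182). The Tcf3 that matched by symbol, with 2 top clusters (37154 the higher), is the E-protein gene ENSMUSG00000020167 and not Tcf7l1, which has shared that name in ES cell work. Arid1b and Prdm14 complete these lists and were named after their values were seen. Ribosomal protein genes gave 1 of 42, Rps24, both of whose clusters were top clusters, and noncoding RNAs and snoRNA hosts gave 1 of 5, Tsix.

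Within the set, coverage and the amount of mature mRNA had almost no rank correlation. The mean FPKM over the 4 hairpins had a Spearman correlation of 0.019 with coverage over the 314 top clusters with an expression entry. Over all 31017 clusters with an entry it was 0.075. In both, a gene with several clusters counts several times. The hosts of top clusters had a median of 9.07 FPKM (240 tested genes; 95% interval of the median 6.98 to 12.3), against 9.01 (8.72 to 9.41) in the 6627 tested genes with other clusters only and 2.65 in all 20281 tested genes. Both kinds of host thus stood at a similar level. Tsix, with the second-highest coverage, stood at 1.54 FPKM in shFox2-1 and 0.923 in shFox2-2, against 1.15 in shLuc and 0.966 in shGFP. Uri1, with the highest, stood at 48.6 FPKM in shFox2-1 and 43.0 in shFox2-2, against 46.3 in shLuc and 45.9 in shGFP.

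Of the hosts, 13 averaged under 1 FPKM, and they held 16 top clusters, 4 of them in Ppp1r12b. The others, named after their values were seen, included Cldn14, a tight junction gene at 0.0413 FPKM in shFox2-1 and listed at 0 in the other hairpins, and Piwil4 and Tdrd9, genes of the germline piRNA pathway. The Piwil4 cluster had a coverage of 20760 and a fold of 20.6, and the gene stood at 0.383 FPKM in shFox2-1 and was listed at 0 in shFox2-2, against 0.176 in shLuc and 0.307 in shGFP. The share of top clusters in hosts under 1 FPKM was 5.10% (3.16 to 8.12), against 4.57% of the other clusters (4.34 to 4.81). The iCLIP and the poly(A) RNA came from different cultures, and FPKM counts polyadenylated transcripts.

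The response of the hosts to loss of Rbfox2 was the measurement that had no part in choosing the clusters. The knockdown was checked first: Rbfox2 stood at 8.56 and 7.21 FPKM in shFox2-1 and shFox2-2, against 24.7 and 23.3 FPKM in shLuc and shGFP. The cells carried the transcripts of ES cells in all 4 hairpins. Pou5f1 stood between 268 and 336 FPKM, Tdgf1 between 243 and 290, Zfp42 between 110 and 189 and Esrrb between 26.3 and 43.4. Sox2 had 2 entries, 1 between 76.0 and 104 FPKM and 1 between 0.433 and 1.32 FPKM. Of the markers of other cell types, Sox17, Gata6, T, Mixl1 and Cdx2 reached at most 0.694 FPKM, and Gata4, Col1a1 and Col1a2 lay between 0.349 and 1.91. Pax6 lay between 4.49 and 5.20 FPKM, Vim between 16.5 and 21.0 and Tubb3 between 24.7 and 38.3. Nes stood at 3.87 FPKM in shFox2-1 and 7.92 in shFox2-2, against 8.49 in shLuc and 9.69 in shGFP. The part of these differences in the host values was not tested. In bulk RNA, fewer cells of a type and less RNA per cell cannot be told apart. Sequencing depth was not given, so the deposited intervals and the spread between hairpins set the precision.

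No host passed the test across all genes. With limma on log2(FPKM + 1), 2 knockdown against 2 control hairpins, 0 of 240 tested hosts had an adjusted p under 0.05, as was the case for 0.0% of all 20281 tested genes, and the lowest adjusted p of a host was 0.933. Rbfox2 itself, with a log2 fold change of -1.50 and a limma unadjusted p of 6.8e-05, had an adjusted p of 0.913, so this fit did not call the targeted gene either. At an unadjusted p under 0.05 there were 8 hosts (3.33%), against a background of 4.48% of tested genes. Of the 8 hosts, 4 were higher (background 2.3%) and 4 lower (background 2.17%). Without shFox2-2 that count was 44 hosts and without shFox2-1 it was 20, beside backgrounds of 14.7% and 10.2%. Without shLuc or without shGFP it was 2. The median log2 fold change of the hosts was 0.01, with 123 above 0 and 117 below, and 80% of hosts lay between -0.20 and 0.22. A share of hosts at or near the background is no result about the top clusters.

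Some hosts nevertheless lay outside the control range in both knockdown hairpins. A gene was called separated when the deposited intervals of shFox2-1 and shFox2-2 were both higher, or both lower, than those of shLuc and shGFP, with no overlap. Of 227 hosts with a mean of at least 1 FPKM, 5 were separated, 3 higher and 2 lower, against a background of 0.293% (37 of 12632 genes). That background includes genes without a cluster. Among the 6099 such genes with other clusters only, 26 were separated, 18 higher and 8 lower. The count was 16 without shFox2-1, 30 without shFox2-2, 6 without shLuc and 8 without shGFP, beside backgrounds of 2.33%, 7.55%, 0.839% and 0.934%. Rbpj, Itga3, Myh10 and Pcbp2 were known from earlier work on this table, so the list is not independent support.

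Itga3, which encodes an integrin alpha chain, differed most. With shFox2-1 it stood at 15.0 FPKM (interval 13.3 to 16.8) and with shFox2-2 at 11.9 FPKM (10.2 to 13.6), against 24.4 in shLuc (22.1 to 26.7) and 26.2 in shGFP (23.7 to 28.7). Both knockdown values were low and no interval reached the controls. The log2 fold change on the log2(FPKM + 1) scale was -0.87 (standard error 0.15), with a limma unadjusted p of 0.00166 and an adjusted p of 0.933. Its only cluster was a top cluster of 610 bases (chr11:94923359-94923968, minus strand) with a coverage of 38413 and a fold of 6.73, at 28.5% of the locus.

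Myh10, whose alternative exon is a known RBFOX target, was the other gene that was lower. It stood at 16.3 FPKM in both shFox2-1 and shFox2-2, against 20.1 in shLuc and 20.8 in shGFP, and the groups did not overlap. The log2 fold change was -0.31 (standard error 0.12), and with hairpins centred on the median gene Myh10 was no longer separated. Its top cluster (chr11:68516106-68516878, plus strand; coverage 35900, fold 6.05) took 93.7% of the coverage of the gene's 7 clusters and lay at 8.88% of the locus.

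Rbpj, which binds DNA as the nuclear mediator of the Notch receptor, had the greatest positive value of the separated hosts. With shFox2-1 it stood at 58.4 FPKM (52.9 to 63.9) and with shFox2-2 at 40.95 FPKM (36.8 to 45.1), against 33.6 in shLuc (30.8 to 36.5) and 33.5 in shGFP (30.4 to 36.5). The hairpins against Rbfox2 differed from each other by more than the controls did. The log2 fold change was 0.53 (standard error 0.18), with a limma unadjusted p of 0.0299 and an adjusted p of 0.978, and without shFox2-1 it was 0.28. Rbpj was not among the separated hosts where a status of OK was required in every hairpin. Its top cluster (chr5:53993522-53994300, plus strand; coverage 39725, fold 9.11) was 1 of 78 clusters and took 9.91% of the gene's coverage.

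Ptpn14, a tyrosine phosphatase that restrains the growth regulator YAP, and Pcbp2 had smaller positive values. Ptpn14 stood at 17.9 and 16.8 FPKM in shFox2-1 and shFox2-2, against 13.3 FPKM in each of shLuc and shGFP, a log2 fold change of 0.36 (standard error 0.12). Its top cluster was only 120 bases wide (chr1:191570442-191570561, plus strand; coverage 21307, fold 6.19) and was 1 of 61 in the gene. Pcbp2 stood at 361 and 368 FPKM in shFox2-1 and shFox2-2, against 299 and 313 FPKM in shLuc and shGFP, a log2 fold change of 0.25 (standard error 0.09). Its top cluster lay at the middle of the locus (chr15:102323817-102324642, plus strand; fold 5.82). In both genes the groups did not overlap as deposited, and with hairpins centred on the median gene Pcbp2 was no longer separated.

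**Figure D5:**
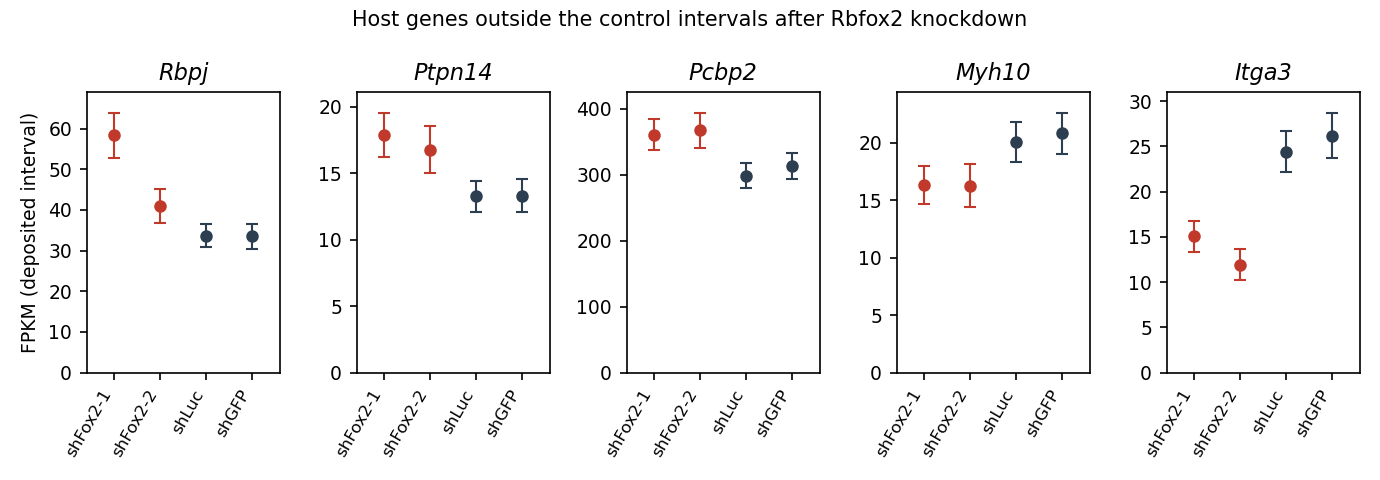
FPKM with the deposited interval (error bars) in each hairpin for the 5 separated host genes, with shFox2-1 and shFox2-2 in red left of shLuc and shGFP in dark blue; each vertical axis is linear and starts at 0. Rbpj, Ptpn14 and Pcbp2 lie above the controls in both knockdown hairpins and Myh10 and Itga3 below them.

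The genes with the most top clusters and the hosts of the 10 leading clusters were not among the separated genes. Deaf1 stood at 6.46 and 4.98 FPKM in shFox2-1 and shFox2-2, against 7.82 and 7.63 FPKM in shLuc and shGFP. Both knockdown values were lower, but the intervals overlapped (3.24 to 6.71 for shFox2-2 and 3.79 to 11.5 for shGFP), and the log2 fold change was -0.38 (standard error 0.17). Enah stood at 166 and 150 FPKM in shFox2-1 and shFox2-2, against 143 and 146 FPKM in shLuc and shGFP, a log2 fold change of 0.12 (standard error 0.10). Among the hosts of the 10 leading clusters, Zfp420 had the greatest difference, a log2 fold change of 0.29 (standard error 0.15), at 1.85 and 1.57 FPKM in shFox2-1 and shFox2-2, against 1.15 and 1.27 FPKM in shLuc and shGFP. Uri1 had -0.01 (standard error 0.11) and Fn1 -0.09 (standard error 0.14). These values are of total gene expression; exon inclusion, the main readout of RBFOX2, is not in the table.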

How the data were processed

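Binding was measured by iCLIP and expression by poly(A) RNA-seq in mouse V6.5 ES cells. Per the file headers, the authors' list gives each cluster's place on mm9 and its gene ID with 3 joined figures, which are the coverage, the fold against the untagged library and the q-value. These deposited figures served for description and ranking within the list. Whether coverage counts reads or sums bases, and how the libraries were scaled, was not given in the sources used here. Per the file headers, the authors deposited FPKM values with bounds and a status, 1 per gene and hairpin, in the layout of a Cuffdiff table; the submitters' processing notes name TopHat2 2.0, Cufflinks 2.1.1 and mm9. The depth of neither assay was known.

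Clusters at or above the 99th percentile of coverage were taken as the top clusters. Shares have 95% Wilson intervals. Gene names came from the reference gene tables, and an expression entry was used where its name matched and its locus overlapped the cluster. limma 3.58.1 under R 4.3.3 allowed the variance to follow the mean, with a pseudocount of 1 and Benjamini-Hochberg adjustment. It was fitted to the 20281 of 26857 entries that had no failed status and were not at 0 throughout. The fit was also run on simulated hairpins that all had the spread between the control hairpins. That run cannot tell how the fit behaves at the spread between the knockdown hairpins. Fold changes on the log2(FPKM + 1) scale understate changes of low genes. As hairpins pool their libraries, p-values reflect how hairpins vary, not how cultures vary.

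The rule for named genes took the hosts of the 10 leading clusters, up to 10 genes with 3 or more top clusters, the separated hosts, up to 4 genes per list and the 3 clusters on each side of the threshold. The members and lists were chosen with earlier results of these data known. Some genes of these lists are not reported here.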

Additional observations from a re-analysis of the deposited data

Results flagged for a closer look

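For 6 hosts of top clusters the hairpins against Rbfox2 disagreed in direction: the interval in shFox2-1 lay above both control intervals and the interval in shFox2-2 below both. The difference between the hairpins was not tested. Tet2 stood at 11.5 FPKM in shFox2-1 and 3.45 in shFox2-2, against 5.05 in shLuc and 5.21 in shGFP, and the log2 ratio of shFox2-1 to shFox2-2, taken on FPKM + 1, was 1.495. Setd2 stood at 17.4 FPKM in shFox2-1 and 8.10 in shFox2-2, against 11.4 in shLuc and 12.6 in shGFP, a log2 ratio of 1.013. The log2 ratio was 0.888 for Fnbp1l, an F-BAR protein of actin assembly, 0.737 for Otud4, a deubiquitinase, and 0.691 for Ahctf1, a nuclear pore protein.

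The pattern was found in 6 of 227 hosts (2.64%), against 58 of all 12632 expressed genes (0.459%), and the opposite order in 0 hosts and 1 gene. The hairpins also differed as wholes: the median expressed gene stood 0.09 above the average of the 4 hairpins on the log2 scale in shFox2-1 and 0.10 below it in shFox2-2, beside -0.03 in shLuc and 0.04 in shGFP. With each hairpin centred on its median gene the pattern was found in 2 hosts (0.881%), Setd2 and E130014J05Rik, which was not among the 6, and in 13 expressed genes (0.103%). The part of this shift in the 6 hosts was not tested beyond that count.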

How the results depend on the processing

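The 98th percentile gave 713 clusters in 461 genes and the stricter percentile tried gave 179 in 159, with 48.8% and 19.6% of clusters in genes with several; without clusters under 100 bases that share was 25.1%. A ranking by coverage per base kept 64 of the 357, since narrow clusters then lead. A window of 2 kb held 5.10% at the 3′ end, beside 10.1% of the other clusters. Hosts with an unadjusted limma p under 0.05 numbered 14 with hairpins centred and 2 to 44 with a hairpin left out. The background with hairpins centred was 5.13% of tested genes, and the background also moved with a hairpin left out. These unadjusted counts are thus no result about the top clusters. Separated hosts numbered 6 to 30 with a hairpin left out, beside backgrounds of 0.839% to 7.55% of expressed genes. With hairpins centred 5 were separated (background 0.309%), 3 of them among the original 5 (Itga3, Ptpn14 and Rbpj, but not Myh10 and Pcbp2). With status OK in every hairpin 4 were separated (background 0.206%), without Rbpj. No host passed an adjusted p of 0.05 under any of the 7 limma alternatives. The log2 fold changes of the 7 genes named in these runs kept their direction under the 7 alternatives, Itga3 from -1.02 to -0.71 (adjusted p 0.0802 to 1) and Rbpj from 0.28 to 0.78. The rankings by coverage per base and by coverage minus untagged, the joining at 1 kb and the shares without narrow clusters were chosen after seeing the data. No paired analysis was possible because the columns pool the libraries of a hairpin and carry no replicate number. The motif window was not run. Without counts, the limit that depth sets is unknown.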

Other observations

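The implied untagged coverage of the clusters was not spread evenly. Of the 19639 clusters with a finite fold, 6581 (33.5%) had a value that rounds to 112, and the next most frequent values were 224 (1939 clusters), 336 (856), 447 (425), 559 (258) and 671 (163). The lowest values were 4, 9, 13, 18 and 22, with 89 to 120 clusters each. The only top cluster at 1 of the 6 frequent values was that of Aldh5a1, at 559, the lowest untagged coverage among the top clusters. The sources used here do not say what a step of 112 stands for.

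The deposited q-value was 0 for 354 of the 357 top clusters and for 4303 clusters in all. Where it was above 0 and the fold infinite, it matched a one-sided binomial probability of coverage with an even chance for each library in all 15413 clusters, within 0.05 on the log10 scale, and in 88.1% of 15923 clusters with a finite fold. For the top clusters it therefore gives no order.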
